A study of Mus musculus with 4 samples.

Results

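Rora and the genes of the lipoxygenase route that makes and handles maresin 1 were followed at every array probe that names them. The 10 genes were taken as a list (Rora, Alox12, Alox15, Alox5, Alox5ap, Alox8, Lta4h, Ltc4s, Ephx2 and Lgr6), chosen because maresin 1 is made through 12-lipoxygenase and because the study links it to the nuclear receptor ROR alpha. They were represented by 13 of the 56605 probes on the array, matched through the RefSeq accession of each probe. The RNA came from primary Kupffer cells, which are macrophages that reside in liver sinusoids, of male C57BL/6 mice aged 8 weeks, freed with collagenase, enriched on a Percoll gradient and cultured. In 1 group the cells were given maresin 1 (MaR1) at 200 nM and in the other its ethanol vehicle (Veh), each for 24 h in medium with 0.1% serum. Each group had 2 one-colour arrays. Neither group carried a genetic change. Whether the 2 arrays of a group stand for different cultures or mice is not stated, and the p-values therefore cover no more than array-to-array spread, which may be technical.

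Maresin 1 belongs to the lipid mediators derived from docosahexaenoic acid, an omega-3 fatty acid; macrophages make it, and it helps inflammation to resolve. A 12-lipoxygenase adds oxygen to the fatty acid, the product becomes an epoxide, and the epoxide is opened to maresin 1. Soluble epoxide hydrolase and glutathione-adding enzymes can take the same epoxide to other maresins, while the related 5-lipoxygenase route makes leukotrienes, which attract and activate leukocytes. The comparison asks whether the transcripts of this circuit differ between Kupffer cells given maresin 1 and those given vehicle.

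The 75th percentile of the processed signal, to which each array was scaled, lay between 847 and 988, and 54.5% to 55.6% of probes were well above background, the scanner software's mark for a detected spot. Arrays of a group correlated with r of 0.9979 and 0.9980 over the kept probes, which are not independent replicates, and arrays of different groups with r up to 0.991. All 12 Kupffer cell markers examined were well above background on all 4 arrays. By limma, 3 of these 12 fell, namely Spic (-1.71 ± 0.05 on the log2 scale, adjusted p = 0.00148), Adgre1 (-0.67 ± 0.06, adjusted p = 0.00626) and Id3 (-0.59 ± 0.07, adjusted p = 0.0127), and 1 rose, Csf1r (0.29 ± 0.07, adjusted p = 0.0464). The other 8 did not pass, among them Clec4f, a lectin restricted to Kupffer cells (0.04 ± 0.07, adjusted p = 0.692). Among all genes, 11.3% passed as higher and 12.9% as lower, which is the background for this and the later marker lists. The part of these marker changes in the results below was not tested. All arrays were on 1 slide with the groups at separate positions, and an effect of position cannot be told apart from one of treatment. In bulk RNA of this kind, fewer cells of a type and less RNA per cell cannot be told apart either.

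Of the 13 probes, 10 probes of 8 genes were well above background on all 4 arrays and were tested, and the 3 others (1 of Rora and those of Alox8 and Lgr6) were not well above background on any array. By limma's moderated test with Benjamini-Hochberg adjustment over all 31128 probes tested, 5 of the 10 were higher with maresin 1 (both probes of Rora, both of Alox12 and that of Ltc4s), 1 was lower (Alox5ap) and 4 did not pass. The background of these counts is wide: 24.0% of all probes tested passed, 11.6% as higher and 12.4% as lower. The median log2 difference was 0.23 over the 10 member probes and -0.01 over all probes tested. Rora and Alox12 each enter the member median through 2 probes of 1 transcript, which weights it towards these genes. Counted by gene, 3 of the 8 were higher and 1 was lower. Among all genes at their brightest kept probe, 11.3% were higher and 12.9% lower. Groups of 2 arrays also separate easily, since the values did not overlap at 69.5% of all probes. An exact permutation test on 2 against 2 arrays cannot give a two-sided p below 0.333, so single values are given with the fit's standard error.

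**Figure D1:**
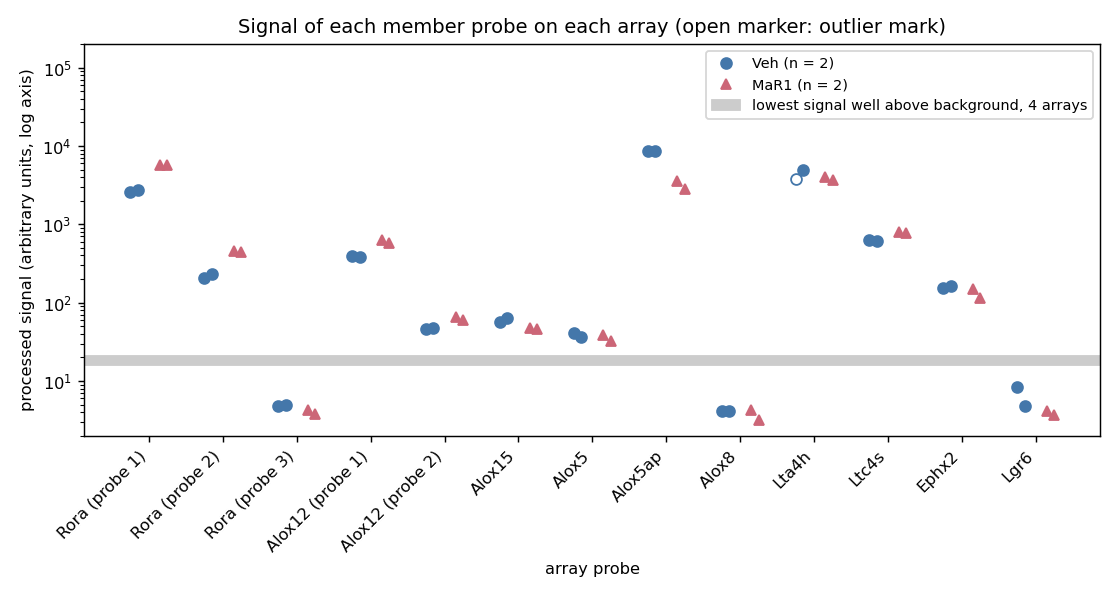
Processed signal (arbitrary units, log axis) of each of the 13 member probes on each array, with 2 Veh arrays as circles and 2 MaR1 arrays as triangles. The grey band spans the lowest signal well above background on the 4 arrays (16.0 to 20.6), and an open marker carries an outlier mark. Both detected Rora probes and both Alox12 probes are higher on the MaR1 arrays, Alox5ap is lower, and the third Rora probe, Alox8 and Lgr6 lie under the band.

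Rora encodes ROR alpha, a nuclear receptor that binds DNA as a monomer and drives genes of the clock and of lipid metabolism. At its brighter probe the processed signal was 2573 and 2705 with vehicle against 5651 and 5683 with maresin 1, so both treated arrays lay at about the same height, well clear of the vehicle arrays. Relative to the array's 75th percentile, the log2 level rose from 1.44 ± 0.02 to 2.66 ± 0.12 (SD, n = 2), and the difference was 1.23 ± 0.08 (SE of the limma fit, adjusted p = 0.00382). In fold terms this is 2.34, with a 95% confidence interval from 2.02 to 2.71. Only 1.47% of all probes tested had a larger increase. The second Rora probe, designed to the same RefSeq transcript, had signals of 204 and 232 with vehicle and 452 and 445 with maresin 1. It gave a difference of 1.17 ± 0.09 (adjusted p = 0.00492), and its confidence interval (1.91-fold to 2.65-fold) overlaps that of the brighter probe. The third probe, designed to another Rora transcript, was on no array well above background, with signals between 3.77 and 4.88. Both calls held with any 1 array left out, with differences of 1.14 to 1.31 at the brighter probe and 1.09 to 1.24 at the dimmer one.

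ROR alpha transcripts are also made by lymphoid cells. The 11 markers of T, NK and innate lymphoid cells, all well above background on every array, summed to 46.1 and 44.9 times the array's 75th percentile on the vehicle arrays and to 68.2 and 75.03 times on the maresin 1 arrays. The rise in Gzma, a granzyme gene (1.37 ± 0.09 on the log2 scale, adjusted p = 0.00404), was larger than that of the whole sum. Gzma went from 19.27 and 18.3 times the 75th percentile with vehicle to 45.05 and 51.89 times with maresin 1. Without Gzma, the list summed to less with maresin 1 than with vehicle. The median log2 difference over the 11 markers was -0.22. Of these 11 markers 3 rose (Gzma, Il7r and Gata3) and 5 fell (Thy1, Lck, Cd3g, Nkg7 and Ncr1). Among all genes, 11.3% were called higher and 12.9% lower. The part of these cells in the Rora result was not tested.

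Alox12 encodes the platelet-type 12-lipoxygenase, an enzyme able to start the conversion of docosahexaenoic acid to maresin 1. The vehicle arrays read 390 and 379 at its brighter probe, and the maresin 1 arrays 623 and 575. The maresin 1 arrays were both higher, and the groups were separated by 0.70 on the log2 scale, where the SD within a group was 0.06 with vehicle and 0.03 with maresin 1. The difference was 0.76 ± 0.06 (adjusted p = 0.00558), or 1.69-fold (95% confidence interval 1.51 to 1.90), and 3.73% of all probes had a larger increase. At the dimmer probe, designed to the same transcript, the signals were 46.6 and 47.2 with vehicle and 65.1 and 59.4 with maresin 1. That probe gave a smaller difference of 0.53 ± 0.06 (adjusted p = 0.00873, 1.44-fold). Its difference came to 0.26 (adjusted p = 0.00855) with normexp background correction and quantile normalization, and its call was lost without vehicle replicate 2 (adjusted p = 0.0502). The call at the brighter probe held with any 1 array left out (0.72 to 0.80).

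Because this enzyme is best known from platelets, markers of platelets and megakaryocytes were read beside it. Of 11 markers, 5 were well above background on all arrays (Pf4, Ppbp, Itga2b, Gp1bb and Gp6). Another 4 were on none (Gp1ba, Gp5, Gp9 and Tubb1, which encode platelet adhesion receptor chains and the platelet tubulin). The list summed to 15.4 and 14.3 times the 75th percentile with vehicle and 17.0 and 15.7 times with maresin 1, nearly all of it from the chemokine gene Pf4 (14.9, 13.8, 16.6 and 15.3), whose difference of 0.15 ± 0.08 did not pass (adjusted p = 0.226). The only marker called was Gp6, a collagen receptor gene, which was lower (-1.12 ± 0.12, adjusted p = 0.00906). The part of platelets in the Alox12 result was not tested.

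The start regions of the 2 genes that rose most among the members are shown because ROR alpha is known to bind a DNA element built on the letters AGGTCA or GGGTCA after an A- and T-rich stretch. RefSeq windows (GRCm38.p6) were at hand for 7 of the 10 members, all but Alox15, Alox5ap and Ephx2. The 250 bases upstream of the start are printed 5′ to 3′ on the gene's strand. The window of Rora is chr9:68653536-68653785 (+ strand) and that of Alox12 is chr11:70255371-70255620 (- strand). Capitals mark GGGCGG, the GC box that the general factor SP1 binds.
Rora: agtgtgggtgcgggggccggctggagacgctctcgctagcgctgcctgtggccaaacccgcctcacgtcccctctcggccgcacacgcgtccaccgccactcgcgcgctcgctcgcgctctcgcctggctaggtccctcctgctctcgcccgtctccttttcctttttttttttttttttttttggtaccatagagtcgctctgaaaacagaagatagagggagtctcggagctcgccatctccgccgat
Alox12: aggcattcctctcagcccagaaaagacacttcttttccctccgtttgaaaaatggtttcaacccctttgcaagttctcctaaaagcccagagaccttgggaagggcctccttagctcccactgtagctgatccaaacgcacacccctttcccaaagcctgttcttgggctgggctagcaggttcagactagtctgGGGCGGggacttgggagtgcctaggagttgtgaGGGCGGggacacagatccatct
On either strand, neither AGGTCA nor GGGTCA occurs in these windows or in those of the other 5 members (Alox5, Alox8, Lta4h, Ltc4s and Lgr6), which says only that these letters are not within these 250 bases. Among all 32851 RefSeq windows, 14% hold AGGTCA and 11.6% hold GGGTCA. The Alox12 window holds 2 GC boxes, at 55 to 50 and 22 to 17 bases before the start, and that of Rora holds none, against 32.7% of all windows with at least 1 on either strand.

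Alox15 encodes the leukocyte-type lipoxygenase, which in mouse acts mainly at the same carbon as the platelet-type enzyme. Its signals were 56.9 and 64.1 with vehicle and 48.1 and 46.7 with maresin 1. The maresin 1 arrays were the lower ones, but the groups were only 0.10 apart on the log2 scale, close to the SD within each (0.09 and 0.08). The difference of -0.23 ± 0.08 did not pass (adjusted p = 0.114), and its 95% confidence interval runs from 0.735-fold to 0.994-fold. Whichever array was left out, adjusted p lay between 0.153 and 0.351. Eosinophils, a rich source of this enzyme, were read through 6 markers. Ear6, Siglecf, Prg2 and Ccr3 were well above background on all 4 arrays, and Epx and Il5ra on none. The summed level of that list was 0.745 and 0.628 times the 75th percentile with vehicle and 1.17 and 1.19 times with maresin 1, mostly from the ribonuclease gene Ear6. Of the 4 markers tested, 2 rose, Ear6 (1.08 ± 0.13, adjusted p = 0.0109) and the lectin gene Siglecf (0.70 ± 0.07, adjusted p = 0.00861). Prg2 (0.04 ± 0.35, adjusted p = 0.936) and Ccr3 (-0.20 ± 0.06, adjusted p = 0.0754) did not pass. Among all genes, 11.3% were called higher, and the part of eosinophils in the Alox15 value was not tested.

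Alox8, the gene of the mouse lipoxygenase that acts on carbon 8 of arachidonic acid, had signals of 4.17, 4.15, 4.25 and 3.22 on the 4 arrays and was not well above background on any. Of the epidermal-type lipoxygenases examined beside the members, Alox12b and Alox12e were also left out by the filter on dim probes, and Aloxe3 was at 0.29 ± 0.13, short of the threshold (adjusted p = 0.180).

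The largest decrease among the members was that of Alox5ap. This gene encodes FLAP, a membrane protein that hands arachidonic acid to 5-lipoxygenase for leukotriene synthesis. Its probe read 8534 and 8628 with vehicle against 3567 and 2833 with maresin 1. The vehicle arrays were nearly equal and the maresin 1 arrays both far lower, with a gap between the groups of 1.21 on the log2 scale. The level fell from 3.14 ± 0.02 to 1.83 ± 0.12 (SD, n = 2), a difference of -1.31 ± 0.08 (adjusted p = 0.00342). Levels with vehicle were 2.48 times those with maresin 1 (95% confidence interval 2.13 to 2.88). Only 0.459% of all probes had a lower difference. The call held with any 1 array left out (-1.40 to -1.22) and under every other setting run.

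Alox5 itself, the gene of the enzyme that FLAP serves, was dim. Its signals were 40.8 and 36.5 with vehicle and 38.2 and 32.6 with maresin 1, above the lowest signal marked as detected on each array (16.0 to 20.6). The groups overlapped, and the difference was -0.01 ± 0.09 (adjusted p = 0.953). The confidence interval, from 0.841-fold to 1.18-fold, does not show that the level was the same, and the sign of the value turned with the scaling (0.05 with quantile normalization and 0.09 in the authors' deposited value table).

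The enzymes that take the leukotriene epoxide further were read next. Lta4h encodes leukotriene A4 hydrolase, which makes leukotriene B4 and can also meet the maresin epoxide. Its signal was 3820 and 4907 with vehicle and 4008 and 3721 with maresin 1, and the spot of vehicle replicate 1 carried an outlier mark, so the fit used 3 arrays. It gave -0.20 ± 0.08 (adjusted p = 0.162), which did not pass. With the marked spot kept the groups overlapped and the value was -0.04 (adjusted p = 0.820). With a variance trend in the fit, the value of -0.20 passed (adjusted p = 0.0239).

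Ltc4s encodes leukotriene C4 synthase, which joins glutathione to the leukotriene epoxide and, by the same chemistry, to the maresin epoxide. Its signals were 623 and 611 with vehicle and 794 and 772 with maresin 1. Both maresin 1 arrays were above both vehicle arrays, by 0.37 on the log2 scale, and the difference was 0.47 ± 0.07 (adjusted p = 0.0189), or 1.38-fold (95% confidence interval 1.21 to 1.58). This was the weakest call among the members: it was lost without vehicle replicate 1 (adjusted p = 0.0702), vehicle replicate 2 (0.0829) or maresin 1 replicate 2 (0.0707), and also when dim probes were not filtered (0.0598). Mast cells and basophils, which use this enzyme, were read through 8 markers. Their summed level was 5.70 and 5.90 times the 75th percentile with vehicle and 9.36 and 9.38 times with maresin 1, mostly from Kit (0.69 ± 0.06, adjusted p = 0.00568), a growth factor receptor gene. Of the 5 markers tested, 2 rose, Kit and the mast cell protease gene Cma1 (0.81 ± 0.06, adjusted p = 0.00505), and the other 3 did not pass. Among all genes, 11.3% were called higher. Of the chains of the IgE receptor, Fcer1a and Ms4a2 were not well above background on any array, and the part of these cells in the Ltc4s result was not tested.

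Neutrophils also carry the leukotriene enzymes, and their markers were read beside Alox5ap. Of 9 with a probe, 7 were well above background on all arrays. The list summed to 1.83 and 1.65 times the 75th percentile with vehicle and 1.53 and 1.61 times with maresin 1, and Cxcr2, a chemokine receptor gene of these cells, was on no array well above background. The collagenase gene Mmp8 was the only one of these markers called (-1.53 ± 0.08, adjusted p = 0.00291), in the same direction as Alox5ap, and the part of neutrophils in that result was not tested.

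Ephx2 encodes soluble epoxide hydrolase, which opens fatty acid epoxides and can turn the maresin epoxide into maresin 2. Its signals were 154 and 162 with vehicle and 148 and 115 with maresin 1. The groups were 0.03 apart on the log2 scale, less than the SD of 0.14 between the maresin 1 arrays, and the difference of -0.15 ± 0.09 did not pass (adjusted p = 0.272; 95% confidence interval 0.765-fold to 1.06-fold). Hepatocytes express this gene strongly. Of their 12 markers, 10 were well above background on all arrays, and the list summed to 36.4 and 34.0 times the 75th percentile with vehicle and 30.4 and 32.0 times with maresin 1. Most of that sum came from Trf, Alb and Serpina1a (13.3, 9.85 and 9.13 times on vehicle replicate 1). Cps1 and Apob were not well above background on any array. The part of hepatocyte RNA in the Ephx2 value was not tested.

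Lgr6 encodes a cell surface receptor described for maresin 1. Its probe read 8.44 and 4.82 with vehicle and 4.09 and 3.70 with maresin 1, all under the lowest signal marked as detected, so no difference could be measured at this probe.

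**Figure D2:**
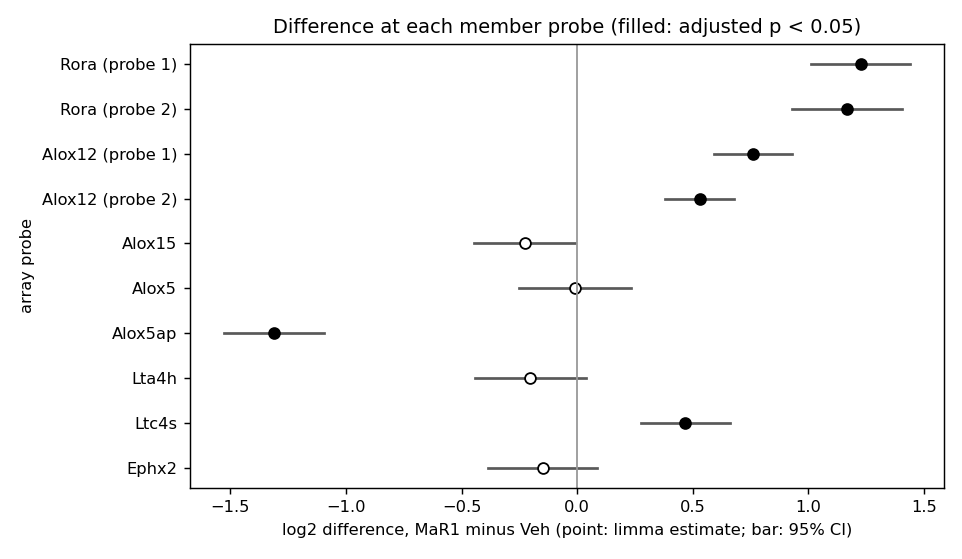
Log2 difference (MaR1 minus Veh) at the 10 member probes that were tested, with the limma estimate as a point and its 95% confidence interval as a bar. Filled points passed at an adjusted p under 0.05: both probes of Rora and of Alox12 and that of Ltc4s on the higher side and Alox5ap (-1.31) on the lower side.

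Gaps between 2 member probes on the same array do not change when an array is shifted by a constant on the log2 scale, as the scaling to the 75th percentile does, though they can change with quantile normalization. They were followed relative to their mean on the vehicle arrays. Between Alox12 and Alox5ap the gap was 0.03 and -0.03 with vehicle and 1.96 and 2.18 with maresin 1 on the log2 scale. The ratio of Alox12 to Alox5ap signal was thus 4.20 times as high with maresin 1, relative to vehicle. Between Alox12 and Alox15, genes for enzymes of the same position, the gap widened by 0.99, or 1.98-fold. Rora moved further than Alox12, by 0.47, with gaps of 0.40 and 0.53 on the maresin 1 arrays against -0.06 and 0.06 with vehicle. For each of these pairs the exact permutation test gave p = 0.333 (two-sided), the smallest that this design allows.

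**Figure D3:**
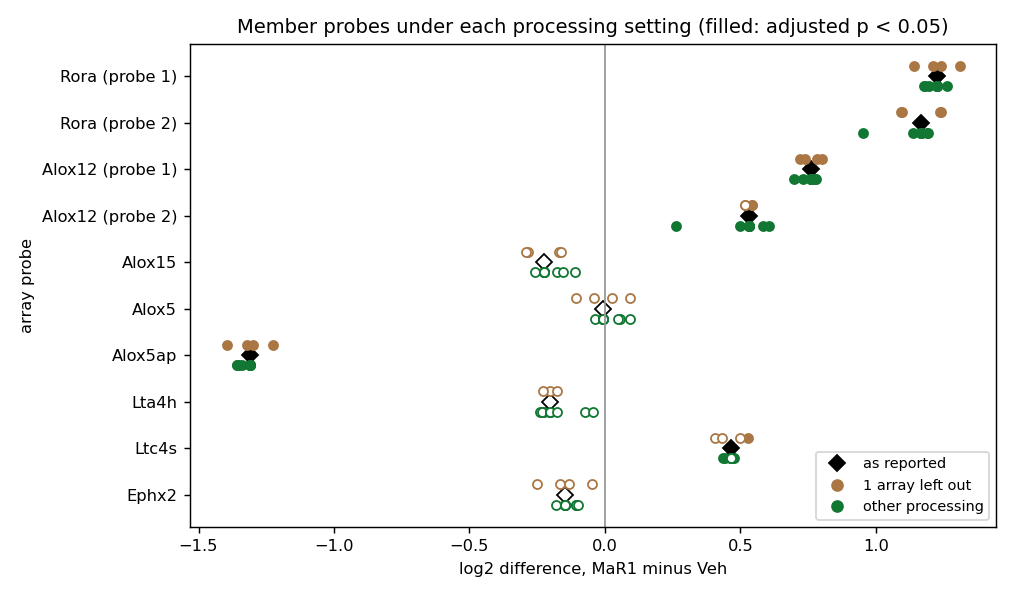
Log2 difference (MaR1 minus Veh) of each tested member probe as reported (diamonds), with 1 array left out (upper circles) and under the other processing settings (lower circles), filled where adjusted p was under 0.05. Rora stays between 0.95 and 1.31 over both probes and Alox5ap between -1.40 and -1.22, while Ltc4s keeps its value (0.41 to 0.53) with both filled and open points.

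Profiles most like those of 3 members were sought by the Euclidean distance between the 4 centred array values, over all kept probes with a symbol. For Rora the 5 nearest were Ifnb1 (distance 0.04 on the log2 scale), Insl6, Gm16793, Bace2 and Gm4907 (0.07), with differences of 1.18 to 1.29. Ifnb1 encodes interferon beta and Bace2 a membrane protease. For Alox12 they were Prelid2 (0.02), Adamts4, St6galnac4, Slc1a4 and Ptgis (0.05), with differences of 0.74 to 0.77. Ptgis encodes prostacyclin synthase, and Adamts4 an enzyme that cuts cartilage proteoglycan. For Alox5ap they were Cyp26b1 (0.04), Tmtc1, Slit1, Ppt2 and Irak3 (0.07), with differences of -1.30 to -1.25. Cyp26b1 encodes an enzyme that clears retinoic acid, and Irak3 an inhibitor of Toll-like receptor signalling. With 4 arrays in 2 groups such distances mostly sort probes by the size of the difference.

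Position on the chromosome was examined by annotation order, a rule added after the data were seen. Alox12 lies next to Alox12e, which the filter on dim probes left out, and then Alox15. Of the 5 protein-coding genes on each side, 9 were tested: 2 rose (Bcl6b, a transcriptional repressor gene, at 0.75 ± 0.06, and Slc16a11, a transporter gene, at 0.78 ± 0.14) and 1 fell (Arrb2, the beta-arrestin 2 gene, at -0.62 ± 0.06). The nearest tested gene on the other side, Rnasek, was at 0.19 ± 0.06 (adjusted p = 0.0793). Among all genes, wherever they lie, 24.2% were called, 11.3% as higher and 12.9% as lower. Around Rora, 7 of 10 neighbours were tested, none passed the limma test at an adjusted p under 0.05 (2 had an unadjusted p under 0.05), and their differences ran from -0.37 to 0.28.

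Other genes of the pathway were read from 4 lists, each gene at its brightest kept probe. Over the lists together, 57 of 77 genes were kept by the filter, 8 rose and 15 fell, where 24.2% of all 24067 genes passed (11.3% as higher and 12.9% as lower). Without 1 array, 5 to 6 were higher and 5 to 8 lower (omitting vehicle replicate 1 left 5 and 6, vehicle replicate 2 left 5 and 8, maresin 1 replicate 1 left 6 and 7, and maresin 1 replicate 2 left 5 and 5). Of these 23 genes, 10 stayed called in all 4 such fits. The median log2 difference over all genes was -0.02.

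On the list of lipoxygenase, leukotriene and pro-resolving mediator genes, 20 of 30 were kept, 3 rose, 6 fell and 11 did not pass, with a median of -0.02. Of all genes, 11.3% passed as higher and 12.9% as lower. Receptors made up much of it. Fpr2, a formyl peptide receptor that also binds lipoxin, had signals of 17858 and 18572 with vehicle and 3724 and 2796 with maresin 1. The leukotriene receptors were split: Cysltr1 fell (-0.65 ± 0.07, adjusted p = 0.0101) while Cysltr2 (0.42 ± 0.06, adjusted p = 0.0175) and the leukotriene B4 receptor gene Ltb4r1 (0.56 ± 0.12, adjusted p = 0.0385) rose. Gpr18, whose product is described as a resolvin receptor, fell (-0.32 ± 0.07, adjusted p = 0.0429), and Cmklr1, another resolvin receptor gene, was at 0.12 ± 0.11 (adjusted p = 0.478). Of these calls, that of Cysltr1 was lost without maresin 1 replicate 2 (adjusted p = 0.0545), that of Cysltr2 without any array but maresin 1 replicate 1 (up to 0.0849), and those of Ltb4r1 and Gpr18 when 1 array, whichever it was, was omitted (highest adjusted p = 0.124 and 0.154).

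The same list holds enzymes that use up lipid mediators or their epoxides, of which Ephx1, Hpgd and Gstm4 fell and Cyp4f18 rose. Cyp4f18, whose enzyme inactivates leukotriene B4, is outside the rule for named genes and was added after its values were seen (0.23 ± 0.05, adjusted p = 0.0482); its call was lost when 1 array, whichever it was, was omitted (up to 0.191). Ephx1, the microsomal epoxide hydrolase gene, read 11620 and 11778 with vehicle and 5698 and 5329 with maresin 1, and fell by 0.96 ± 0.06 on the log2 scale (-0.96, adjusted p = 0.00338). Hpgd, whose product oxidises prostaglandins and other hydroxylated lipids, read 1496 and 1591 against 716 and 638. Gstm4, a glutathione transferase gene described in the making of maresin conjugates, was at -0.72 ± 0.12 (adjusted p = 0.0218), a call lost without any array but maresin 1 replicate 1 (up to 0.0866), and thus moved against Ltc4s. The related microsomal glutathione transferase genes Mgst2 (-0.01 ± 0.07) and Mgst3 (-0.03 ± 0.06) did not pass (adjusted p = 0.956 and 0.716). With 1 array left out, 0 to 1 of this list's genes were higher and 3 to 5 lower, and Fpr2, Hpgd and Ephx1 kept their calls throughout.

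Genes that supply docosahexaenoic acid were read against the same background, 24.2% of all genes called. Of 14 listed, 12 were kept, 2 fell, none rose by limma at an adjusted p under 0.05 (1 with a variance trend) and 10 did not pass, with a median of -0.10; at an unadjusted p under 0.05 there were 3. Fads1, a fatty acid desaturase gene, read 1063 and 1049 with vehicle and 663 and 570 with maresin 1 (-0.66 ± 0.06, adjusted p = 0.00687). Fabp7, a fatty acid binding protein gene, read 40772 and 41079 against 21441 and 19783 (-0.87 ± 0.06, adjusted p = 0.00388). Both stayed called in all 4 fits that omit an array. The elongase gene Elovl5 (0.07 ± 0.06, adjusted p = 0.426) and the phospholipase gene Pla2g4a (0.09 ± 0.07, adjusted p = 0.359), whose product frees fatty acids from membranes, did not pass. With a variance trend 4 were lower.

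On the list of ROR family members, co-regulators and sterol ligand genes, 12 of 16 were kept, 3 rose, 2 fell and 7 did not pass, with a median of 0.06. Of all genes, 11.3% passed as higher and 12.9% as lower. The 3 that rose were Ch25h, Cyp7b1 and Nr1d1. Cyp7b1 and Nr1d1 are also on the list of ROR alpha targets below, so the rises on these lists are not separate results. Rorb had no matched probe. Ch25h, which makes an oxysterol from cholesterol, had the largest difference of the list, with signals of 6593 and 6695 with vehicle and 28956 and 28585 with maresin 1 (2.24 ± 0.07, adjusted p = 0.00148, 4.71-fold). Cyp7b1, whose enzyme breaks such oxysterols down, read 302 and 279 against 571 and 626 (1.17 ± 0.12, adjusted p = 0.00919), and its other probe gave 0.93 ± 0.10 (adjusted p = 0.00906). Its call was lost with no filter on dim probes (0.0538). Cyp27a1, another sterol hydroxylase gene, was lower (-0.48 ± 0.06, adjusted p = 0.0136), a call lost when 1 array, whichever it was, was omitted (up to 0.0701), as was that of the coactivator gene Ncoa2 (-0.28 ± 0.06, adjusted p = 0.0386, up to 0.161). The corepressor gene Ncor1 (-0.13 ± 0.05, adjusted p = 0.159) did not pass at its brightest probe, although another of its probes did (-0.34, adjusted p = 0.0203). Likewise Nr1d2, the REV-ERB beta gene, did not pass at its brightest probe (0.25 ± 0.07, adjusted p = 0.065) and did at another (0.42, adjusted p = 0.0442).

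On the list of genes described as ROR alpha targets, 15 of 20 were kept, 4 rose, 5 fell and 6 did not pass, with a median of -0.06. Of all genes, 24.2% passed, 11.3% as higher and 12.9% as lower. Klf4, a transcription factor gene of alternative macrophage activation, read 6963 and 7734 with vehicle and 15184 and 15800 with maresin 1 (1.20 ± 0.10, adjusted p = 0.00565). Nfil3 read 12016 and 12279 against 25695 and 23995, and Nr1d1, which encodes REV-ERB alpha, a repressor that competes with ROR alpha for the same DNA elements, read 651 and 643 against 1161 and 1014. At all 3 of these genes both maresin 1 arrays were above both vehicle arrays, but the groups also did not overlap at 69.5% of all probes tested. Cyp7b1, described above, was the fourth gene that rose, and all 4 stayed called in each fit that omits an array. The clock activator gene Arntl was at -0.34 ± 0.06 (adjusted p = 0.0237), the fatty acid oxidation gene Cpt1a at -0.45 ± 0.06 (adjusted p = 0.0158), the lipid phosphatase gene Lpin1 at -0.36 ± 0.06 (adjusted p = 0.0232) and the apolipoprotein genes Apoc3 at -0.48 ± 0.08 (adjusted p = 0.0245) and Apoa5 at -0.72 ± 0.17 (adjusted p = 0.0488). The probes of Apoc3 disagreed: of its other probes, 1 gave -0.39 (adjusted p = 0.0268) and 1 gave 0.13 (adjusted p = 0.154). These 5 decreases changed most with the settings: 0 to 2 genes of this list were lower with 1 array left out and 0 with no filter on dim probes. Apoc3 and Apoa5 are made by hepatocytes. Of the 10 hepatocyte markers tested, 2 (Hnf4a and Ttr) were lower as well, where 12.9% of all genes were called lower. The median over the 10 was -0.27, and the part of hepatocyte RNA in these decreases was not tested.

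**Figure D4:**
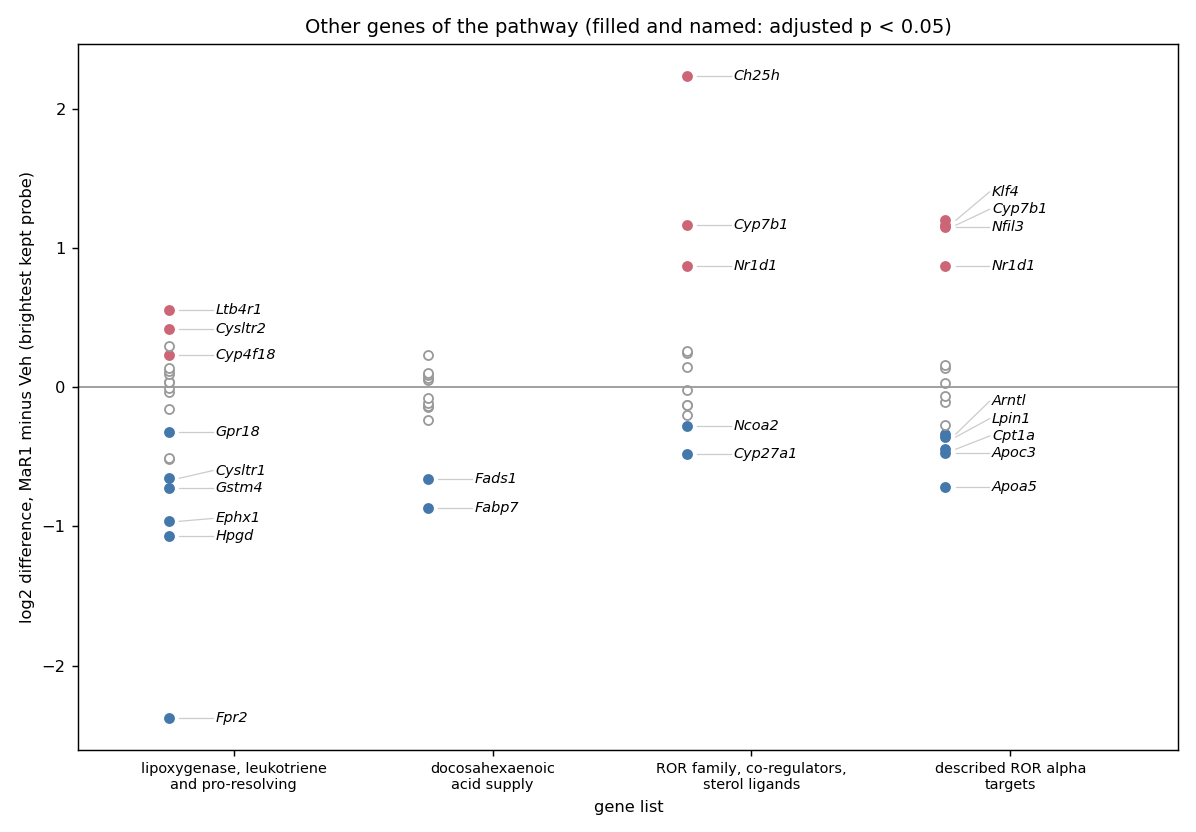
Log2 difference (MaR1 minus Veh, brightest kept probe) of the genes on the 4 pathway lists, with genes at an adjusted p under 0.05 filled and named and the others open. Ch25h (2.24) and Fpr2 (-2.37) stand farthest from 0, and the genes described as ROR alpha targets fall on both sides.

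**Figure D5:**
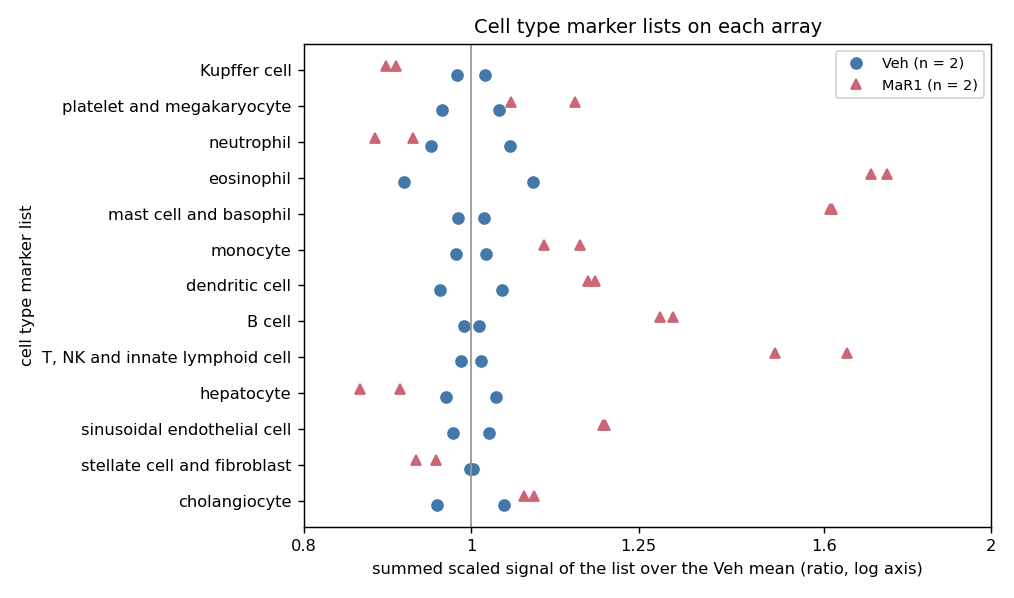
Summed scaled signal of each cell type marker list on each array, divided by its mean on the Veh arrays (ratio, log axis), with 2 Veh arrays as circles and 2 MaR1 arrays as triangles. The eosinophil (1.72), mast cell and basophil (1.62) and T, NK and innate lymphoid (1.57) lists have the highest mean ratios on the MaR1 arrays, and the hepatocyte (0.885), Kupffer cell (0.898) and neutrophil (0.902) lists lie below 1. On the MaR1 arrays each of the highest sums came mostly from a single gene (Ear6, Kit and Gzma, in that order). Of the T, NK and innate lymphoid markers, 3 were called higher and 5 lower.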

How the data were processed

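Expression was measured on Agilent arrays in 1 colour (Cy3), 2 per group. The deposited intensity values are scanner output of Agilent Feature Extraction (version 11.0.1.1, per the file headers), background-subtracted by the authors' scanner software within an array and not normalized between arrays. The authors' deposited value table holds log2 values whose scale, filter and centring no label states. Its columns have medians of 9.07 and correlate with log2 processed signal at r = 1.00. They list only probes well above background on all 4 arrays. When sorted, the columns lie within 0.00146 of their mean, as quantile normalization leaves them. The table served as an alternative, close in kind to the quantile normalization setting.

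Each array's processed signal was put on the log2 scale and its 75th percentile over spots other than controls was subtracted; spots carrying an outlier mark were dropped. Probes well above background on both arrays of a group were kept (31128 of 56605) and tested with limma (version 3.58.1, R version 4.3.3); p-values are two-sided and were adjusted by Benjamini-Hochberg over all kept probes, with a threshold of 0.05 and no replicate term. Prior degrees of freedom were 2.31. RefSeq accessions (GRCm38.p6, for names) gave 58.3% of probes 1 symbol. Named genes were all member probes, up to 8 called genes of each list with the smallest p, and 5 nearest profiles for 3 members. Non-called members of a list were named where needed as measured values. Cyp4f18 and Apoa5 are named outside this rule. Figures label every called list gene. The fit was tested on simulated data, and figures were drawn with matplotlib 3.10.9. Members, lists and motifs were chosen with earlier results of these data known. The number of arrays limits precision.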

Additional observations from a re-analysis of the deposited data

How the results depend on the processing

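Across 14 alternatives, 126 of 137 member values kept their direction and side of the threshold. Those that did not were Ltc4s (4 values no longer past it), the dimmer Alox12 probe (1), Lta4h (1 now past it) and Alox5 (5 of the other sign, none past it by limma). No value could be had for Lta4h without vehicle replicate 2. Settings that changed only the filter, the variance trend or the probes entered leave each difference as it was. There the direction was fixed, and only the side of the threshold could change. The mean spot signal was not in the columns used, so normexp was run on the median signal. With no filter on dim probes, 1483 probes were higher and 1275 lower (3602 and 3868 as reported), and 4 list genes were higher and 7 lower (8 and 15 as reported). With a variance trend, 5908 and 5853 probes were called, and 2 member probes were lower rather than 1. With 1 probe a gene, 3 member probes were higher, since 2 of the 5 were not entered. Leaving out 1 array gave 1295 to 1698 higher and 1146 to 1804 lower probes, 3 to 5 higher and 1 lower member probes, and 5 to 6 higher and 5 to 8 lower list genes. The replicate number is not said to mark a pair and was therefore not taken as a pairing. Same-numbered arrays also did not deviate together (r = -0.03 between vehicle and maresin 1 replicate 1). With the replicate block, 2546 probes were lower and 4970 called in all, and the 6 member calls held. Dim probes (Alox15, Alox5 and the second Alox12 probe) lie closest to background among the member probes tested.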
